A study of Mus musculus with 37 samples.

Results

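The genes described here are 9 that carry fatty acids from blood lipoproteins into fat cells, namely *Lpl*, *Gpihbp1*, *Angptl4*, *Vldlr*, *Cd36*, *Slc27a1*, *Fabp3*, *Fabp4* and *Acsl1*, out of 24657 gene symbols on the array. Their probe sets were found by gene symbol. The 9 genes have 11 probe sets among the 41155 that are not array controls, and the probe set with the highest mean over the BXD strains stood for each gene. Transcripts were measured in brown adipose tissue (BAT) of male mice of 35 BXD strains, which are recombinant inbred lines bred from C57BL/6J and DBA/2J, and of both parents. All mice ate a chow diet, were fasted overnight and were sacrificed at 29 weeks of age. RNA of about 5 mice per strain was pooled for 1 array, so strain and array error cannot be separated, and p-values measure the spread between pools. All values below are in rescaled units, because the authors brought each array to a common mean (8) and SD (2). A fold range is nominal, since it takes 1 unit as a doubling, which was true only where the SD on the log2 scale was 2 to begin with.

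Triglyceride in the blood travels in lipoproteins that cannot leave a capillary. Lipoprotein lipase, made by adipocytes and encoded by *Lpl*, is carried across the endothelium and held at the capillary wall by GPIHBP1, where it releases fatty acids, and the secreted protein ANGPTL4 inhibits it, above all during fasting. The receptor VLDLR binds triglyceride-rich lipoproteins. CD36, present on both capillary endothelial cells and adipocytes, and the transport protein FATP1, encoded by *Slc27a1*, bring the fatty acids through the membrane. FABP3 and FABP4 bind them in the cytosol and ACSL1 joins them to coenzyme A, after which brown fat can burn them for heat. Several of these genes, *Angptl4*, *Cd36*, *Fabp4* and *Acsl1* among them, are known targets of the PPAR nuclear receptors.

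Transcripts that the tissue label calls for were above background, though this alone does not identify the tissue. Background was set at 7.94 units, the 95th percentile of 1128 olfactory receptor probe sets. All 8 brown adipocyte markers, all 10 adipocyte markers and all 15 endothelial markers had a mean above it, as had all 9 fatty acid uptake genes. So had 19436 of all 41155 probe sets, and all 6 macrophage and all 5 pericyte markers. Skeletal muscle markers also differed widely between pools, with a list mean from 9.91 in BXD65 to 13.60 in BXD97 (12 of 12 genes above background). The liver marker mean was 12.11 in BXD70 against a median of 7.28, with 3 of its 7 genes above background over the strains. The arrays measured whole tissue, in which fewer cells of a type and less RNA per cell cannot be told apart.

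At the capillary wall, the probe set used for the lipase had a smaller SD over strains than those of its anchor and its inhibitor. It was also brighter than both, and bright probe sets had smaller SDs in general (median 0.123 units at a mean of at least 14, against 0.192 above background). *Lpl* lay between 14.82 in BXD98 and 15.21 in BXD62, with a median of 15.05 (mean 15.02 ± 0.11, SD, n = 35 strains) and a nominal range of 1.31-fold. *Gpihbp1* lay between 10.75 in BXD95 and 11.50 in BXD50, with a median of 11.16 (11.17 ± 0.21, SD, n = 35) and a range of 1.69-fold. The strains formed an unbroken series for both genes, with no strain standing apart. *Angptl4* lay between 12.65 in BXD87 and 13.76 in BXD103, with a median of 13.30 (13.26 ± 0.25, SD, n = 35), a range of 2.16-fold. BXD87 and BXD45 were its lowest strains. *Vldlr* lay between 11.82 in BXD70 and 12.34 in BXD43, with a median of 12.10 (12.11 ± 0.13, SD, n = 35) and a range of 1.43-fold.

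Among the genes for membrane passage, binding and activation, the spread was widest for *Slc27a1* and narrowest for *Fabp4*. *Slc27a1* lay between 11.95 in BXD69 and 13.35 in BXD75, with a median of 12.91 (12.80 ± 0.35, SD, n = 35) and a nominal range of 2.65-fold. BXD69 and BXD68 lay below all other strains. *Cd36* lay between 14.94 in BXD56 and 15.35 in BXD62, with a median of 15.12 (15.13 ± 0.10, SD, n = 35) and a range of 1.33-fold. *Fabp4* lay between 15.54 in BXD49 and 15.86 in BXD62, with a median of 15.71 (15.71 ± 0.069, SD, n = 35) and a range of 1.25-fold. The highest value of any probe set was between 16.18 and 16.47 on the arrays, so that *Fabp4* lay near the upper end of the scale in every strain, and whether this narrowed its range was not tested. *Fabp3* lay between 10.99 in BXD85 and 11.68 in BXD81, with a median of 11.34 (11.35 ± 0.17, SD, n = 35) and a range of 1.60-fold. *Acsl1* lay between 14.74 in BXD101 and 15.32 in BXD62, with a median of 15.08 (15.05 ± 0.15, SD, n = 35) and a range of 1.5-fold.

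**Figure D1:**
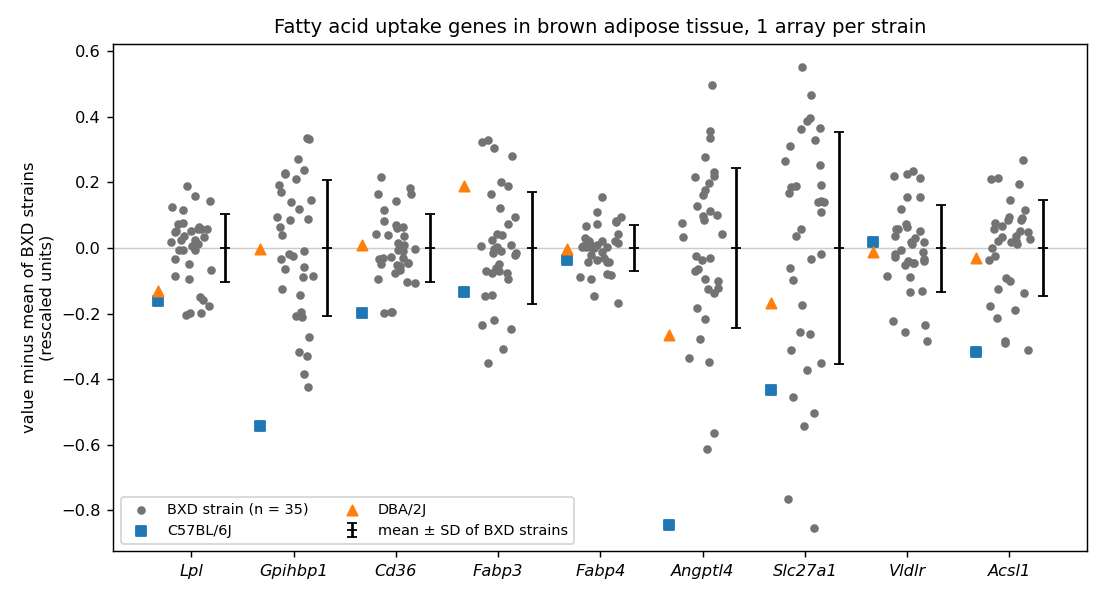
Values of the 9 genes on single arrays, as the difference from the mean of the 35 BXD strains in rescaled units (vertical axis), with a grey point for each BXD strain, a blue square for C57BL/6J, an orange triangle for DBA/2J and a bar for the mean ± SD of the BXD strains. The points spread most for *Slc27a1* and *Angptl4* and least for *Fabp4*, and C57BL/6J lies under the strains for *Gpihbp1* and *Angptl4*.

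The median SD of the 9 genes was 0.146 units and their median range 0.580 units. For the 19436 probe sets above background the medians were 0.192 and 0.827 units, and for the 234 probe sets with a mean of at least 14 they were 0.123 and 0.509 units. By SD, *Fabp4* stood at percentile 0.108 of the probe sets above background, *Cd36* at 3.26, *Lpl* at 3.50, *Vldlr* at 14.7 and *Acsl1* at 22.5. *Fabp3*, at percentile 37.6, and *Gpihbp1*, at 56.3, lay in the middle, and *Angptl4* at 68.4 and *Slc27a1* at 86.5 were the more variable ones. No test was made of these percentiles. *Lpl* and *Fabp3* each had a second, dimmer probe set, whose values followed those of the first only weakly over the strains (*r* = 0.124 and *r* = 0.160, n = 35). The second probe set of *Lpl* had an SD of 0.197 units against 0.105 for the first, and that of *Fabp3* 0.226 against 0.170, so that results for these genes rest on the probe set used.

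Some strains were high or low for several of the genes at once. BXD62 was among the 5 highest strains for *Lpl*, *Cd36*, *Fabp3*, *Fabp4*, *Slc27a1* and *Acsl1*. BXD80 was among the 5 highest for another set of 6, *Gpihbp1*, *Cd36*, *Fabp4*, *Angptl4*, *Slc27a1* and *Acsl1*, and among the 5 lowest for *Fabp3*. BXD66 was among the 5 highest for *Lpl*, *Cd36*, *Fabp4*, *Angptl4* and *Acsl1*. BXD101 was among the 5 lowest for *Lpl*, *Cd36*, *Fabp4*, *Slc27a1*, *Vldlr* and *Acsl1*, and BXD56 for *Lpl*, *Gpihbp1*, *Cd36*, *Fabp4* and *Acsl1*. These strains are described without a test.

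Whether the genes move together over strains was asked for all 36 pairs, with limma fits on each gene across the whole array. Both fits called 2 pairs, 1 among the genes of the capillary wall and 1 among those for membrane passage and binding. *Gpihbp1*, the anchor of the lipase, rose with *Angptl4*, its inhibitor, and *Cd36* rose with *Fabp4*. *Lpl* was in neither pair.

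For *Gpihbp1* and *Angptl4*, Pearson's *r* was 0.633 and Spearman's rho 0.670 over 35 strains (p = 5e-05 and p = 4e-05, 100000 permutations, two-sided), and *r* was 0.533 without the 2 strains farthest from the median of *Gpihbp1*, BXD95 and BXD45. The limma adjusted p over all probe sets was 0.0246 in the fit on *Gpihbp1*, in which 0.369% of the 41154 other probe sets passed, and 0.0119 in the fit on *Angptl4*, in which 1.26% passed. The pair was no longer called without BXD45, BXD85 or BXD95, with ranks in place of values or without the 2 farthest strains. For *Cd36* and *Fabp4*, *r* was 0.71 and rho 0.642 (p = 1e-05, the smallest these permutations can give, and p = 4e-05), with *r* = 0.628 without BXD62 and BXD66. The adjusted p was 0.0369 in the fit on *Cd36*, which called 1.87% of probe sets, and 0.0399 in the fit on *Fabp4*, which called 0.214%. This pair was less firm. It was lost without BXD43, BXD56, BXD62, BXD66, BXD71, BXD80, BXD96 or BXD101, under quantile normalization (adjusted p = 0.184), with arrays centred on the median (0.302), with a covariate for the first principal component (0.170), with ranks (0.105), and without the strains with the highest and lowest muscle mean (0.0535). *Fabp4* itself followed the 99th percentile of its array (*r* = 0.478, p = 0.00385, rho = 0.383, p = 0.0239, permutation tests, n = 35, *r* = 0.343 without BXD49 and BXD75). The part of that in the pair was not tested beyond these scalings.

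*Cd36* and *Acsl1* came close, with *r* = 0.634 and rho = 0.576 (p = 5e-05 and p = 0.00036 by permutation, n = 35) and *r* = 0.545 without BXD62 and BXD66. Limma called them in the fit on *Cd36* (adjusted p = 0.0164) and not in the fit on *Acsl1* (adjusted p = 0.0724), in which 0.386% of probe sets passed. Both fits called the pair with both parents included (adjusted p = 0.0271, the higher of both fits) and with dim transcripts left out (0.0268). The other pairs were not called. Of these, *Lpl* and *Fabp4* had *r* = 0.541, *Slc27a1* and *Acsl1* 0.537, *Fabp4* and *Acsl1* 0.478, and *Lpl* and *Cd36* 0.470, with limma adjusted p between 0.0958 and 0.446 over both fits of each. *Gpihbp1*, which carries the lipase, and *Lpl* had *r* = 0.131 (permutation p = 0.45, rho = 0.101, p = 0.561, *r* = 0.00037 without BXD98 and BXD56), and *Angptl4* and *Lpl* had *r* = 0.092 (permutation p = 0.6, rho = 0.106, p = 0.544, *r* = 0.042 without the same strains). Over the 36 pairs *r* lay above 0 in 29, with a median of 0.159, and 11 pairs had an unadjusted permutation p under 0.05. Which share of all probe sets has *r* above 0 or such an unadjusted p with these genes was not determined. These counts and the median are therefore not read as covariation particular to the uptake genes.

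**Figure D2:**
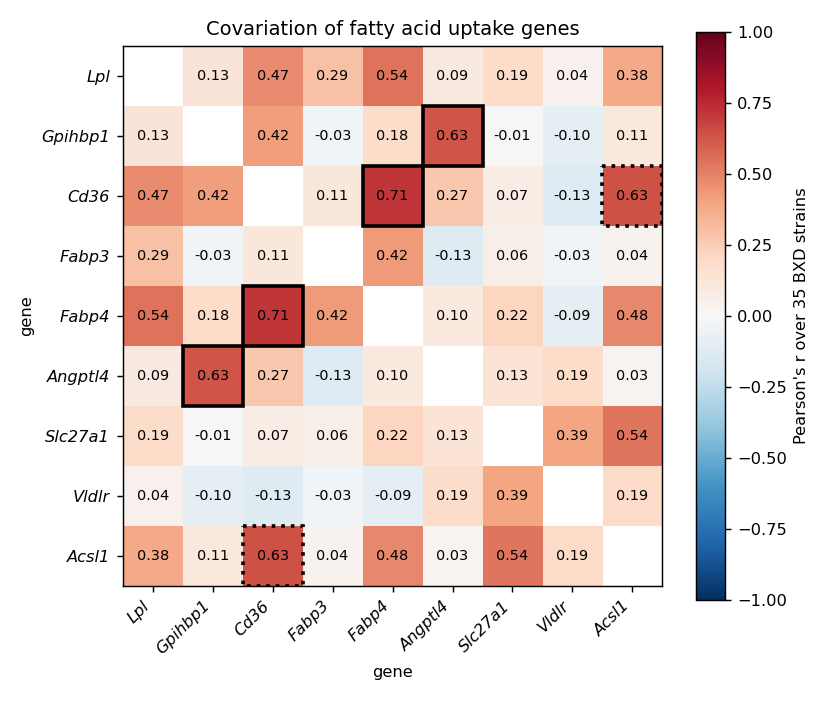
Pearson's *r* over the 35 BXD strains for each pair of the 9 genes, with the colour scale from -1 (blue) to 1 (red), solid frames around the pairs that both limma fits called and a dotted frame around the pair that 1 fit called. *Lpl*, *Cd36*, *Fabp4* and *Acsl1* have *r* between 0.38 and 0.71 with one another, and *Gpihbp1* stands with *Angptl4* at 0.63.

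The genes were then set against 15 endothelial and 10 adipocyte markers, none of which is among the 9. A single limma fit held both marker means, each scaled to an SD of 1 over the strains, and the endothelial minus the adipocyte coefficient tested the difference. *Gpihbp1* followed the endothelial markers more than the adipocyte markers, by 0.199 ± 0.041 units per SD (SE, adjusted p = 0.0057). It was the only 1 of the 9 genes with a called difference, where 2.46% of all probe sets passed. With ranks in place of values the call was lost (adjusted p = 0.065). The difference lay at 0.189 ± 0.059 (adjusted p = 0.0787) for *Angptl4* and at -0.097 ± 0.032 (adjusted p = 0.106) for *Acsl1*, and neither passed. With dim transcripts left out, which shortens the list adjusted over, both did (adjusted p = 0.0394 and 0.0489), and *Angptl4* also did with both parents included (adjusted p = 0.0233).

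By their separate coefficients, *Gpihbp1*, *Cd36* and *Angptl4* rose with the endothelial markers and *Acsl1* with the adipocyte markers. The endothelial coefficient was 0.160 units per SD for *Gpihbp1* (adjusted p = 0.0003), 0.134 for *Angptl4* (adjusted p = 0.0354) and 0.057 for *Cd36* (adjusted p = 0.0393). A called positive endothelial coefficient was found for these 3 of the 9 genes and for 1.85% of all probe sets. The adipocyte coefficient was 0.103 for *Acsl1* (adjusted p = 0.0099), the 1 gene of the 9 called, against 0.518% of all probe sets. For *Cd36* it was 0.040 (adjusted p = 0.241), and the difference between its coefficients was 0.017 (adjusted p = 0.823), so *Cd36* could not be assigned to either side. *Lpl*, *Fabp3*, *Fabp4* and *Vldlr* had differences between -0.033 and -0.0022 that were not called, and *Slc27a1* one of -0.184 ± 0.093 (SE, adjusted p = 0.353).

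**Figure D3:**
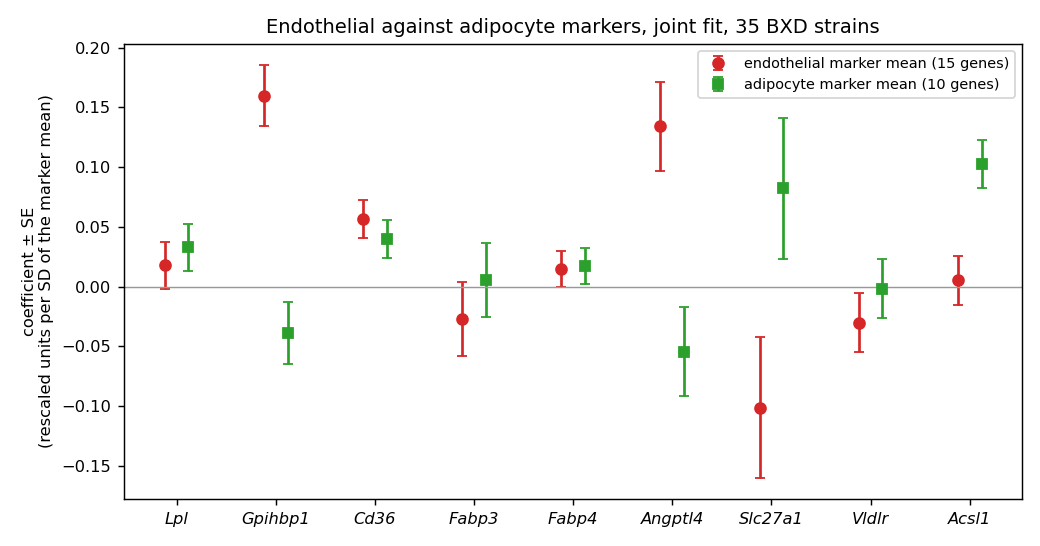
Coefficients of the joint limma fit over 35 BXD strains for each of the 9 genes, in rescaled units per SD of the marker mean (vertical axis), with red circles for the 15 endothelial markers, green squares for the 10 adipocyte markers and bars for ± 1 SE. The endothelial coefficient stands highest for *Gpihbp1* at 0.160, and *Acsl1* shows the reverse order, with an adipocyte coefficient of 0.103.

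Single markers all had the sign of the called coefficient for *Gpihbp1*, *Cd36* and *Acsl1*, and most of them had it for *Angptl4*. *Angptl4* had *r* above 0 with 13 of 15 endothelial markers and *r* = 0.494 with their mean. A limma fit on that mean alone did not call it (adjusted p = 0.0676). *Gpihbp1* had *r* above 0 with 15 of 15 endothelial markers and *r* = 0.728 with their mean (p = 1e-05, the smallest possible with 100000 permutations, rho = 0.740, n = 35, *r* = 0.683 without BXD56 and BXD85), and *r* = 0.0017 with the adipocyte mean. *Cd36* had *r* above 0 with 15 of 15 endothelial and with 9 of 10 adipocyte markers, with *r* = 0.642 for the endothelial mean (permutation p = 7e-05, rho = 0.616, n = 35, *r* = 0.598 without BXD56 and BXD85) and 0.522 for the adipocyte mean. *Lpl* and *Fabp4*, without a called endothelial coefficient, each had *r* above 0 with 14 of 15 endothelial markers. The count of signs alone thus hardly separates called from uncalled genes. *Acsl1* had *r* above 0 with 10 of 10 adipocyte markers and *r* = 0.715 with their mean (permutation p = 1e-05, rho = 0.676, n = 35, *r* = 0.690 without BXD83 and BXD97). It also had *r* above 0 with 10 of 15 endothelial and 8 of 8 brown markers. Its *r* with the endothelial marker *Eng* was 0.68, as with *Plin1*, its closest adipocyte marker. The median *r* of *Acsl1* was 0.478 over the adipocyte and 0.091 over the endothelial markers. The endothelial and adipocyte means had *r* = 0.246 with each other (permutation p = 0.153, rho = 0.194, n = 35). The endothelial mean also moved with the macrophage mean (*r* = 0.467, permutation p = 0.0045, rho = 0.562, n = 35) and the white adipocyte mean (*r* = 0.433, permutation p = 0.0089, n = 35), and the part of these in the endothelial relations was not tested. In a limma fit on the endothelial mean alone *Cd36* had an adjusted p of 0.0207, and of 0.0662 without BXD56, the strain lowest for both.

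*Angptl4* fell as brown adipocyte markers rose. It had *r* below 0 with 8 of 8 of them, from -0.57 for *Dio2* to -0.19 for *Cidea*, and *r* = -0.687 with their mean (permutation p = 1e-05, rho = -0.655, n = 35, *r* = -0.717 without BXD84 and BXD97). Limma gave an adjusted p of 0.0021 in the fit on this mean, which called 1.66% of all probe sets. *Gpihbp1* also had *r* below 0 with 8 of 8 brown markers, and *Vldlr* with 7 of 8. Their *r* with the brown mean was -0.333 and -0.272, and limma called neither (adjusted p = 0.343 and 0.504). With brown in place of adipocyte markers, the endothelial minus brown difference of *Angptl4* was 0.242 units per SD (adjusted p = 9.2e-05) and that of *Gpihbp1* 0.183 (adjusted p = 0.000638). Other lists also moved calls. With 4 adipocyte markers *Slc27a1* was called at -0.281 (adjusted p = 0.0399), and with 4 endothelial markers *Acsl1* at -0.109 (adjusted p = 0.0475).

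Over the other marker means, each fitted alone, *r* with the 9 genes lay between -0.352 and 0.464 for white adipocytes, -0.272 and 0.156 for skeletal muscle, -0.365 and 0.077 for slow muscle, and -0.342 and 0.265 for liver. It lay between -0.409 and 0.371 for macrophages, -0.420 and 0.356 for pericytes and -0.039 and 0.452 for blood, of whose 3 genes 2 were above background. The lowest limma adjusted p among them was 0.155, for *Cd36* and the white adipocyte mean. With the fits on the endothelial, adipocyte and brown means, 90 relations were computed in all.

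**Figure D4:**
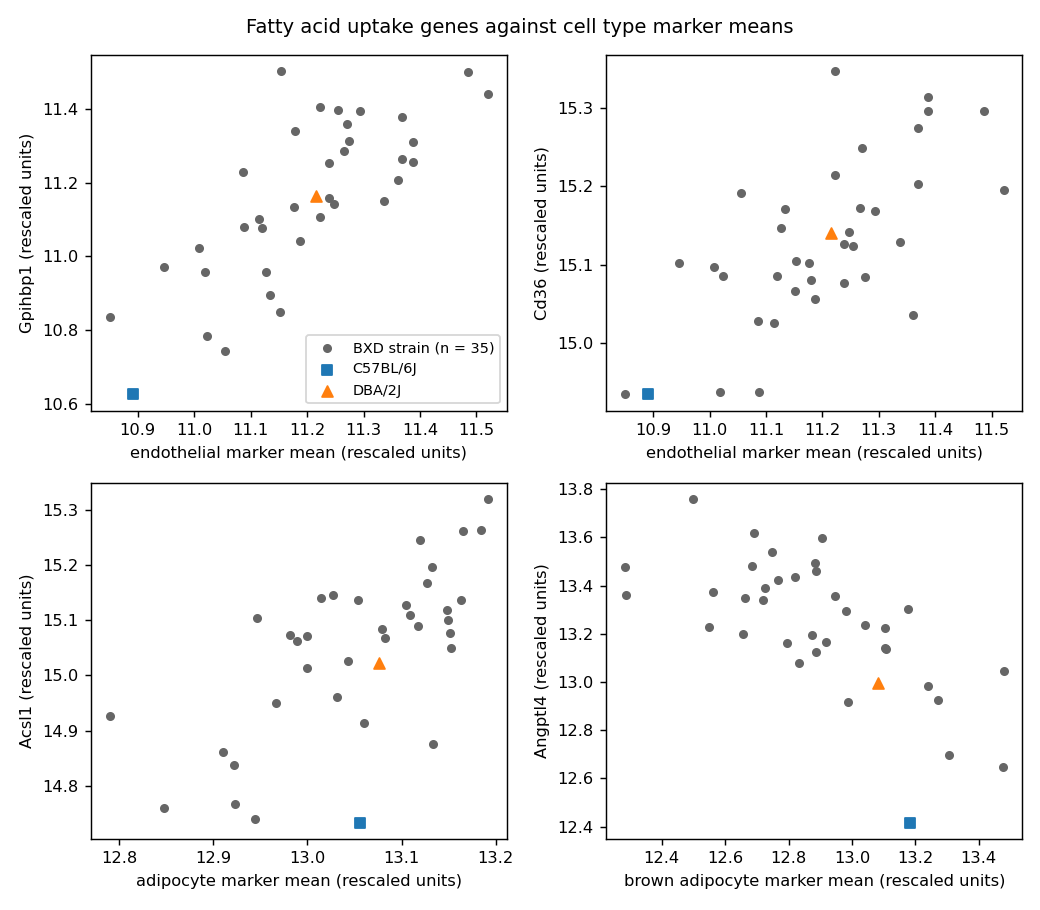
Levels of *Gpihbp1* and *Cd36* against the endothelial marker mean, of *Acsl1* against the adipocyte marker mean and of *Angptl4* against the brown adipocyte marker mean, all in rescaled units, with a grey point for each of the 35 BXD strains, a blue square for C57BL/6J and an orange triangle for DBA/2J. *Gpihbp1*, *Cd36* and *Acsl1* rise with their marker mean (*r* = 0.728, 0.642 and 0.715 over the BXD strains) and *Angptl4* falls (*r* = -0.687).

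The promoters of *Cd36* and *Acsl1* are shown because these genes came close to covarying, and because *Acsl1* followed the adipocyte markers while *Cd36* was called with the endothelial markers and could not be assigned to either side. RefSeq windows of the mouse assembly GRCm38.p6 were matched for 5 of the 9 genes, and the 250 bases before each start were read 5′ to 3′ on the strand of the gene. *Cd36* has a window at chr5:17835897-17836146 on the minus strand, and *Acsl1* has windows for 2 starts, at chr8:46470787-46471036 and chr8:46490716-46490965, both on the plus strand. Capitals mark AGGTCA, the hexamer that nuclear receptors such as the PPARs recognise, the CCAAT box and the GC box GGGCGG, on either strand.
Cd36: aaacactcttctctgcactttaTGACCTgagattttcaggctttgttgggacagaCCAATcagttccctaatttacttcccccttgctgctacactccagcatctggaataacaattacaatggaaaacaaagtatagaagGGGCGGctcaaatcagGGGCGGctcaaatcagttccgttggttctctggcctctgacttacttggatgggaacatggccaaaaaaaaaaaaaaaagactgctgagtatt
Acsl1, first start: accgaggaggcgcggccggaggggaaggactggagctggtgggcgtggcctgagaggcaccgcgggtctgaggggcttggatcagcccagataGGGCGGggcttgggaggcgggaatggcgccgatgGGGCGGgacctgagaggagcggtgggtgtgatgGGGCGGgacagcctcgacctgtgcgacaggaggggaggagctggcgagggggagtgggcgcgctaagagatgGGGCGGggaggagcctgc
Acsl1, second start: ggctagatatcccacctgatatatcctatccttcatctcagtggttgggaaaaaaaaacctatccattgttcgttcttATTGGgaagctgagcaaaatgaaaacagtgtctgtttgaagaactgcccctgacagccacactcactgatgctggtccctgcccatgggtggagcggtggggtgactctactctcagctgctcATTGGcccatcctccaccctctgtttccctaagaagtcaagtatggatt
The *Cd36* window holds 1 AGGTCA hexamer, as TGACCT, 1 CCAAT box and 2 GC boxes that stand in a repeated stretch. The first *Acsl1* window holds 4 GC boxes and 20 CpG dinucleotides, against 3 CpG in *Cd36*, and the second holds 2 CCAAT boxes, both as ATTGG, and 2 CpG. Over all 32851 windows of the same length, AGGTCA was found in 14%, CCAAT in 33.8% and GGGCGG in 32.7%. The direct repeat AGGTCANAGGTCA, present in 0.0335% of all windows, is not in these letters of any of the 5 genes. *Slc27a1* has 3 windows, between chr8:71568621-71568870 and chr8:71570344-71570593, with 1 CCAAT box in the first, 1 GC box in the second, and 1 CCAAT box and 3 GC boxes in the third. These matches are descriptions of the sequence.

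The rest of the uptake pathway, a list of 34 other genes of lipoprotein handling, transport, binding and activation, was read from the same fits. In the endothelial against adipocyte contrast 5 of the 34 were called, 1 higher and 4 lower, where 2.46% of all probe sets passed. *Lrp1*, a receptor for lipoprotein remnants, stood on the endothelial side at 0.260 units per SD (adjusted p = 0.0064). *Angptl8*, which acts with other angiopoietin-like proteins on lipase, was at -0.394 (adjusted p = 0.0091) and *Apoc3*, an apolipoprotein that slows lipoprotein clearance, at -0.256 (adjusted p = 0.0182). The acyl-CoA synthetases *Acsl5* and *Acsl3* were at -0.617 and -0.245 (adjusted p = 0.0225 and 0.039). Both fell as endothelial markers rose, with endothelial coefficients of -0.495 and -0.203 (adjusted p = 0.0024 and 0.0038). The median difference over the list was -0.011. With ranks in place of values 0 of the 34 were called, and with 4 adipocyte markers 9. Only 2 genes were called without the strains with the highest and lowest muscle mean, and 2 to 5 when single strains were left out, with the low counts without BXD45, BXD79 or BXD97.

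*Angptl4* had the most relations with this list, 7 of 34 called in its limma fit, where 1.26% of all probe sets passed. It rose with *Lrp1* (*r* = 0.687, adjusted p = 0.003) and with *Meox2*, a transcription factor of the endothelium known to control fatty acid transport (*r* = 0.628, adjusted p = 0.0107). It fell as *Acsl5* (*r* = -0.756, adjusted p = 0.00034), *Angptl8* (*r* = -0.716, adjusted p = 0.0015) and *Apoc3* (*r* = -0.662, adjusted p = 0.0049) rose. *Angptl8* lay at 9.90 in BXD84 and 11.49 in BXD68, and *Acsl5* at 10.54 in BXD69 and 13.42 in BXD87, the strain in which *Angptl4* was lowest. *Acsl3* (*r* = -0.542, adjusted p = 0.0461) was also called. The call of *Meox2* was lost without BXD87, and that of *Acsl3* without any of 21 single strains. Without BXD87 and BXD45 together, *Lrp1* (adjusted p = 0.0563), *Meox2* (0.174) and *Acsl3* (0.346) were not called.

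*Lpl* had no such relation. In its limma fit 0 of the 34 genes passed, with 1 at an unadjusted p under 0.05, and 0% of all probe sets passed. *Gpihbp1* rose with *Lrp1* (*r* = 0.638, adjusted p = 0.023) and fell as *Acsl5* rose (*r* = -0.606, adjusted p = 0.0284), 2 of 34, both lost without BXD45 or BXD95, and *Acsl5* also without BXD56 or BXD85. *Cd36* rose with *Cav1*, the caveolin on which caveolae depend (*r* = 0.623, adjusted p = 0.0256), and fell as *Apoc1* rose (*r* = -0.666, adjusted p = 0.0047). *Cav1* was lost without BXD66 or BXD83. *Slc27a1* rose with its family member *Slc27a2* (*r* = 0.606, adjusted p = 0.0263), which was lost without BXD65 or BXD69. Of the 34 genes, 2 were thus called for *Gpihbp1*, 2 for *Cd36* and 1 for *Slc27a1*. Of all probe sets, these fits called 0.369%, 1.87% and 0.345%. For *Fabp3*, *Fabp4*, *Vldlr* and *Acsl1* limma called 0 of 34, with 5, 3, 9 and 1 genes at an unadjusted p under 0.05. How many of all probe sets reached this unadjusted limit was not determined. The fits on *Fabp3* and *Vldlr* called 0% of all probe sets.

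A list of 13 PPAR and fasting target genes was read in the same way. Its median *r* was 0.385 with *Acsl1*, 0.365 with *Slc27a1* and 0.333 with *Cd36*, and 7, 7 and 6 of the 13 had an unadjusted p under 0.05 in the limma fits on these genes. The share of all probe sets at this unadjusted limit, and their median *r*, were not determined. These values are therefore not read as a result about the list. In the fit on *Slc27a1*, which called 0.345% of all probe sets, 4 of the 13 rose with it. *Acot2*, a mitochondrial acyl-CoA thioesterase, was at *r* = 0.769 (adjusted p = 0.00033, rho = 0.710, n = 35, *r* = 0.687 without BXD69 and BXD68). *Ucp3*, an uncoupling protein raised by fasting, was at 0.698 (adjusted p = 0.0046). *Acot1* was at 0.782 (adjusted p = 9.3e-05), though with a mean of 7.94 it lay just under the background limit, and it is a close copy of *Acot2*, so that their signals may be shared. BXD68, which was low for *Slc27a1*, held the lowest values of *Acot2* (12.46) and *Ucp3* (11.39). The call of *Ucp3* was lost without BXD68 and BXD69 together.

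*Acsl1* shared part of this pattern. In its fit, where 0.386% of all probe sets passed, 2 of the 13 were called, among them *Acot2* (*r* = 0.742, adjusted p = 0.00082). *Angptl4* rose with *Txnip*, a glucose-responsive gene of the arrestin family (*r* = 0.832, adjusted p = 0.00016, rho = 0.817, n = 35, *r* = 0.768 without BXD87 and BXD45), and *Cpt1a*, the carnitine palmitoyltransferase of liver type (*r* = 0.602, adjusted p = 0.0171), the latter lost without BXD45 or BXD87. The fit on *Angptl4* called these 2 of the 13, and 1.26% of all probe sets. *Txnip* lay between 14.31 in BXD87 and 14.90 in BXD83, and low *Angptl4* went with low *Txnip* in the same strains. For *Lpl*, *Gpihbp1*, *Cd36*, *Fabp3*, *Fabp4* and *Vldlr*, limma called 0 of the 13, with 1, 2, 6, 0, 4 and 5 at an unadjusted p under 0.05. These unadjusted counts, too, have no share over all probe sets beside them. With ranks in place of values for all probe sets, the fitted gene included, none of the calls for the pathway and PPAR target lists in fits on single genes passed.

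**Figure D5:**
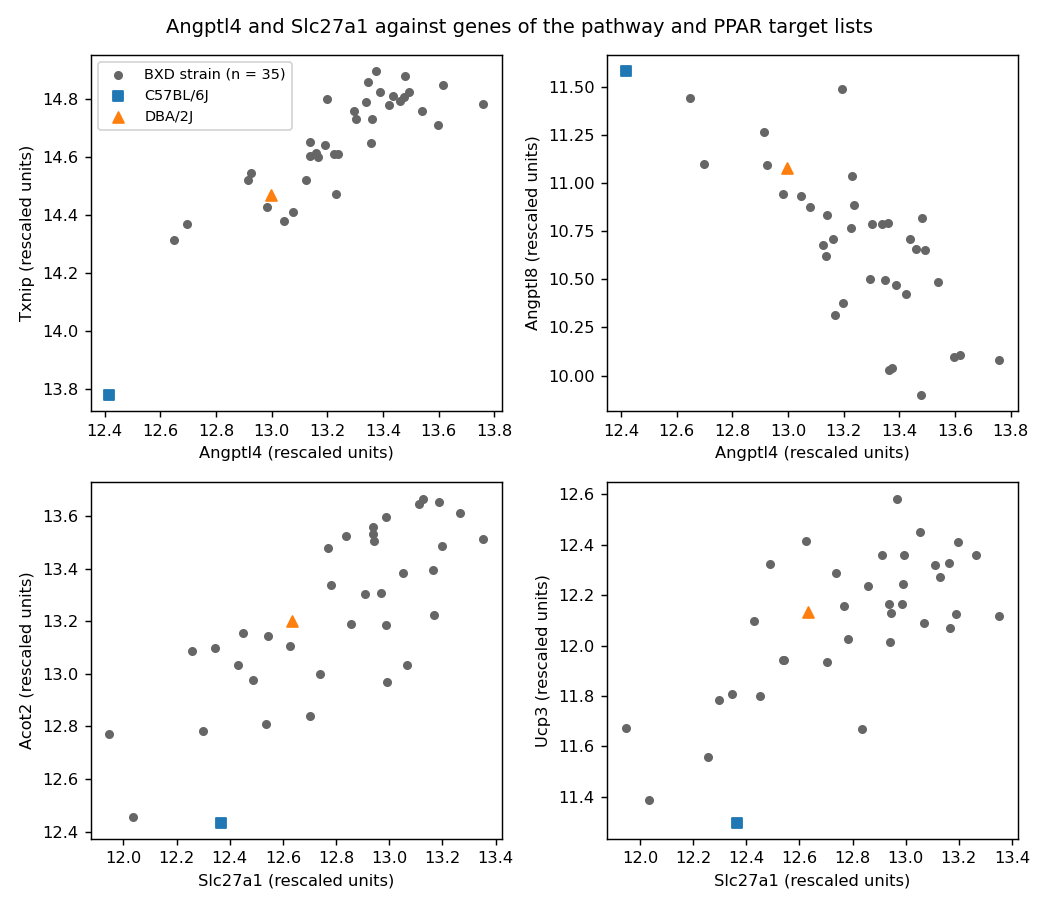
Levels of *Txnip* and *Angptl8* against *Angptl4* and of *Acot2* and *Ucp3* against *Slc27a1*, in rescaled units, with a grey point for each of the 35 BXD strains, a blue square for C57BL/6J and an orange triangle for DBA/2J. Over the BXD strains *r* is 0.832 for *Txnip*, -0.716 for *Angptl8*, 0.769 for *Acot2* and 0.698 for *Ucp3*.

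The transcripts most like each gene were sought among named probe sets above background, 15829 for most genes, by Pearson's *r* over the 35 strains. The closest to *Gpihbp1* were the tight junction gene *Cldn15* (*r* = 0.837) and the endothelial markers *Esam* (0.785) and *Cldn5* (0.742), and the most opposite was the kinase gene *Mapkapk3* (-0.755). The closest to *Cd36* were *Eltd1*, an adhesion receptor gene of endothelium (0.874), *A430107O13Rik* (0.819) and the endothelial marker *Eng* (0.812), and the most opposite was *Lrig1* (-0.811). All of these had limma adjusted p of 0.0016 or less. Limma gave the lowest adjusted p of any of these neighbours to *Ehhadh*, the bifunctional enzyme of peroxisomal oxidation, and *Slc27a1* (*r* = 0.888, adjusted p = 6.1e-09), followed for *Slc27a1* by *Acot4* (0.815) and *Acot2*, with *Cav2* opposite (-0.727). For *Angptl4* the closest after *Txnip* were *Ablim3* (0.777) and *Ctdsp2* (0.753), and *1700037H04Rik* was opposite (-0.821).

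For *Acsl1* the closest were *Tbc1d20* (*r* = 0.835), the mitochondrial carrier gene *Slc25a34* (0.779) and *Plin5*, the lipid droplet protein that ties droplets to mitochondria (0.777), and *Tgfbr2*, a receptor of TGF-beta, was opposite (-0.773). For *Fabp4* they were *Cd36*, *Mir1195* (0.666) and *Mir185* (0.652), with *Dcaf17* opposite (-0.744, limma adjusted p between 0.0366 and 0.0399 for these 4). For the remaining genes no neighbour passed. The closest to *Lpl* were *Mir449b* (0.618), *Gm2799* (0.592) and *Tshr* (0.570), with *Pgpep1* opposite (-0.657), at limma adjusted p between 0.276 and 0.308. The closest to *Fabp3* were *Arid3c* (0.678), *Megf10* (0.673) and *Mir5135* (0.653), with *Rev3l* opposite (-0.646, adjusted p between 0.0786 and 0.130). The closest to *Vldlr* were *Hbp1* (0.713), *Map3k5* (0.685) and *Klhl24* (0.679), with *Orm2* opposite (-0.677, adjusted p = 0.0692 for each).

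Between the parents, *Gpihbp1* and *Angptl4* were at least 0.5 units higher in DBA/2J, which is 2 of the 9 genes where 13% of all probe sets differed by as much in either direction. *Gpihbp1* was 10.63 in C57BL/6J and 11.16 in DBA/2J, and *Angptl4* was 12.417 and 12.997. The gap was 0.32 for *Fabp3*, 0.29 for *Acsl1*, 0.27 for *Slc27a1* and 0.21 for *Cd36*, all higher in DBA/2J. *Lpl*, *Fabp4* and *Vldlr* differed by 0.029, 0.034 and -0.031. The median signed gap, DBA/2J minus C57BL/6J, was 0.268 over the 9 genes and 0.012 over all probe sets. All arrays were scaled to a common mean, which by itself keeps the latter small. Without regard to sign, the median gap over all probe sets was 0.182. Each parent is 1 array, so no test was possible. The parents also differed in their endothelial mean, 10.89 in C57BL/6J and 11.22 in DBA/2J, and in their liver marker mean, 7.45 and 10.78. Their macrophage mean was 9.56 and 10.24, their slow muscle mean 10.52 and 9.90 and their white adipocyte mean 12.22 and 11.80, and the part of any of these in the gaps was not tested.

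C57BL/6J lay below all 35 BXD strains for *Gpihbp1*, *Cd36*, *Angptl4* and *Acsl1*, though for *Cd36* and *Acsl1* by less than 0.01 units. These are 4 of the 9 genes, where C57BL/6J lay outside the range of the strains for 6.71% of all probe sets. DBA/2J lay within that range for all 9, where 2.16% of probe sets lay outside. Among the PPAR targets C57BL/6J was below all strains for *Pdk4*, *Cpt1a*, *Ucp3*, *Acot2* and *Txnip*, 5 of 13, and among the pathway genes it was above all strains for *Angptl8*, *Acsl3* and *Acsl4*, 3 of 34. It was below all strains for 5 of the 15 endothelial markers and outside for 0 of 10 adipocyte and 0 of 8 brown markers. *Txnip* was 13.78 in C57BL/6J, under the lowest strain at 14.31, and *Angptl8* was 11.58, over the highest at 11.49. C57BL/6J thus stood at the low end of *Angptl4* with low *Txnip* and high *Angptl8*, as the BXD strains with low *Angptl4* did.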

How the data were processed

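Total RNA of about 5 mice per strain was pooled by the authors for 1 Affymetrix array each, 37 arrays in all. The labels name Affymetrix Expression Console and the summary method and the log base are not given in the sources used here. The authors deposited 1 table of scores, in which every array has mean 8 and SD 2 after their rescaling. The 190 array controls were left out. Arrays have no read depth, and their number limits the precision. Columns were assigned by strain name.

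Limma 3.58.1 (lmFit and eBayes, R 4.3.3) was fitted across all probe sets over the 35 BXD strains, with 1 gene or marker means as continuous covariates, Benjamini-Hochberg adjustment over all probe sets and an adjusted p of 0.05. The tests had been planned for such scores and were run on them as they are. A pair was called where both of its fits called it. Correlations were Pearson's r and Spearman's rho with 100000 permutations (two-sided). The strains left out as farthest are the 2 farthest from the median of the gene or mean fitted. The fits were checked on simulated data. Other steps used Python 3.11.15 with pandas 2.3.3, scipy 1.17.1, numpy 2.4.6 and matplotlib 3.10.9. Named are all 9 genes, the pathway and PPAR target genes that passed a test (some are counted but not reported here by name), and for each gene the 3 transcripts most like it and the 1 most opposite. The genes, marker lists and tests were chosen with earlier results of these data known. A symbol was matched for 13 of 14 PPAR targets and for 3 of 4 blood markers.

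Alternatives were both parents included, quantile normalization (values moved by 0.012 units in the median and at most 0.167), centring on the median, muscle markers or the first principal component (9.00% of the variance) as a covariate, averaged probe sets per gene, dim transcripts left out, ranks, the farthest strains, BXD70 or the muscle extremes left out, shorter marker lists, brown markers, other thresholds and each strain left out. The fits of pathway genes on genes other than *Lpl*, the fits on single marker means and the alternatives for pathway genes were added after the data had been seen.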

Additional observations from a re-analysis of the deposited data

How the results depend on the processing

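The number of pairs called in both fits, 2, was 0 at an adjusted p of 0.01, 0 with ranks, 0 without the 2 farthest strains, and 1 under quantile normalization, 1 with arrays centred on the median, 1 with the first principal component as a covariate and 1 without the strains at both ends of the muscle mean. It was 3 with both parents included and 3 with dim transcripts left out. Without single strains it ranged from 1 to 3. The number of fatty acid uptake genes called in the endothelial against adipocyte contrast, 1, was 0 with ranks, 3 with dim transcripts left out, and 2 with both parents, 2 with 4 endothelial markers, 2 with 4 adipocyte markers and 2 with brown adipocyte markers. Without single strains it was 1 to 2, and it was 2 without BXD61, BXD68 or BXD87. For the other pathway genes in this contrast, 5 called, the number was 2 at an adjusted p of 0.01, 0 with ranks, 3 with 4 endothelial markers, 9 with 4 adipocyte markers, 8 with brown markers and 2 without the muscle extremes, and 2 to 5 without single strains. In the fit on *Lpl* it was 0 in each alternative tried and 0 with each strain left out in turn. The median SD of the 9 genes, 0.146, was 0.137 to 0.148 without single strains, and the 5th to 95th percentile range in its place was 0.497, which by its construction is wider. The number of genes that differed between the parents, 2, was 0 at a gap of 1 unit. The cause of the other changes was not tested.

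Differences in the contrast that had not been called changed sign as follows. *Lpl* was at 0.0032 under quantile normalization and 0.012 with brown markers. *Fabp3* was at 0.0053 under quantile normalization and 0.543 ranks with ranks. *Fabp4* was at 0.0057 under quantile normalization, 0.0037 with the first principal component, 1.44 ranks with ranks, 0.0057 with 4 adipocyte markers and 0.0064 with brown markers, and it lay between -0.0077 and 0.00602 without single strains. *Vldlr* was at 0.0044 with brown markers. Of 1677 values of single genes or pairs, 1542 kept direction and side of the threshold, 109 lost and 12 gained a call, and 14 changed sign. Most of these values come from leaving out single strains, and many belong to relations not called to begin with. The total is therefore not a measure of how firm the calls are. Among the alternatives other than single strains, the pair *Gpihbp1* and *Angptl4* was kept in 9 of 12 and *Cd36* and *Fabp4* in 5 of 12.

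No paired analysis was possible because each strain has 1 array. With 35 pools and no replicate within a strain, weak relations were below what these arrays resolve.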
